A study of Mus musculus with 16 samples.

Results

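Genes that mark the oligodendrocyte lineage were followed in 16 arrays of cultured adult mouse neural stem cells. The set holds 9 genes: Olig1, Olig2, Pdgfra, Cspg4, Sox10, Sox8, Nkx2-2, Cnp and Mbp. Probe sets were taken where the array annotation gave 1 of these symbols and no other, and the probe set with the highest mean stood for its gene. That rule found 21 probe sets for 8 of the 9 genes, among 12393 genes with a probe set in the whole table, and Sox8 is not analysed here. Probe sets were taken by symbol and mean signal, and no measured difference between groups was used. The members themselves were chosen with earlier results of these data known. The cultures had the genotype Tlx(f/Z), either with CreER (Tlx(f/Z;CreER)) or with no Cre transgene, and each kind was grown with vehicle or 4-hydroxytamoxifen (4OHT), with samples at 36 h and 60 h. This gave 8 groups of 2 arrays. Every group carries the f and Z alleles of Tlx, an orphan nuclear receptor that keeps neural stem cells dividing, and CreER is a Cre recombinase that 4OHT activates. The promoter that drives CreER is not given in the sources used here. Nor is it stated that the 2 samples of a group had different animals or cultures as their source, and the spread behind each p-value may therefore be technical.

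Oligodendrocytes make the myelin sheaths of the central nervous system. They arise from precursor cells that express the basic helix-loop-helix factors Olig1 and Olig2, the homeodomain factor Nkx2-2 and the HMG-box factor Sox10. Precursors carry the PDGF receptor Pdgfra and the proteoglycan NG2, the product of Cspg4, at their surface. Differentiating cells raise Cnp, a phosphodiesterase of non-compact myelin, and Mbp, the basic protein that compacts myelin. Neural stem cells grown in culture with mitogens are known to express Olig2 as well, so its presence alone does not mark commitment to the lineage. Cspg4 and Pdgfra are also expressed outside the lineage, by pericytes and by fibroblasts in that order.

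The arrays report 1 MAS5 signal per probe set, a linear measure of brightness. Median signal per array ran from 92.2 to 132.6. Each gene was compared on the log2(signal + 16) scale, and a gene was tested if its mean on that scale was at or above the percentile 40 over probe sets, equal to a signal of 51.1. A gene under that level is called near background. The actin control, whose 5' to 3' signal ratio falls with shorter labelled RNA, stood apart in 1 set of arrays: it was 0.548 to 0.666 in the 4 arrays without Cre at 36 h and 0.716 to 0.891 in the other 12. The Gapdh control ratio was 0.822 to 1.12 in those 4 arrays.

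Measured members fell into 2 kinds, with Sox10 between them. Olig1, Olig2, Nkx2-2, Cspg4 and Cnp were above the filter on every array, while Pdgfra and Mbp were near background throughout. Of the 21 probe sets, 9 passed the filter and 12 did not. Pdgfra, the receptor through which PDGF-AA drives precursor division, had a lowest signal of 4.23, a median of 19.9 and a highest of 50.4 over the 16 arrays by its brighter probe set. Neither of its 2 probe sets reached the filter level on any of the 16 arrays. By the brighter one, CreER cultures read 4.23 to 20.3 at 36 h and 8.85 to 23.8 at 60 h, and cultures without Cre 24.3 to 42.5 and 14.4 to 50.4. Mbp, the late myelin gene, has 8 probe sets, and all were near background, with signals from 0.445 to 49.9. The brightest of them had a median of 25.0. Sox10, which is needed for myelin gene expression, passed the filter narrowly by 1 of its 3 probe sets. That probe set had a lowest signal of 32.2, a median of 55.8 and a highest of 81.1, and 10 of its 16 readings reached the filter level. By group it read 59.0 and 53.2 (CreER vehicle 36 h), 40.8 and 59.4 (CreER vehicle 60 h), 81.1 and 40.5 (CreER 4OHT 36 h), and 58.4 and 32.2 (CreER 4OHT 60 h). Without Cre it read 32.4 and 43.7, then 41.5 and 63.4, under vehicle at 36 h and 60 h, and 61.8 and 59.6, then 64.5 and 51.9, under 4OHT. Its highest and its lowest reading both came from CreER cultures given 4OHT. The other Sox10 probe sets gave 1.37 to 37.3. Sox10 was therefore tested but sat at the edge of what these arrays separate from background. Other late markers were near background too: of 8 mature oligodendrocyte markers, 5 had a probe set and 0 of the 5 (Mag, Mog, Mobp, Cldn11 and Aspa) passed the filter, with a summed signal of 33.5 to 80.7 per array.

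**Figure D1:**
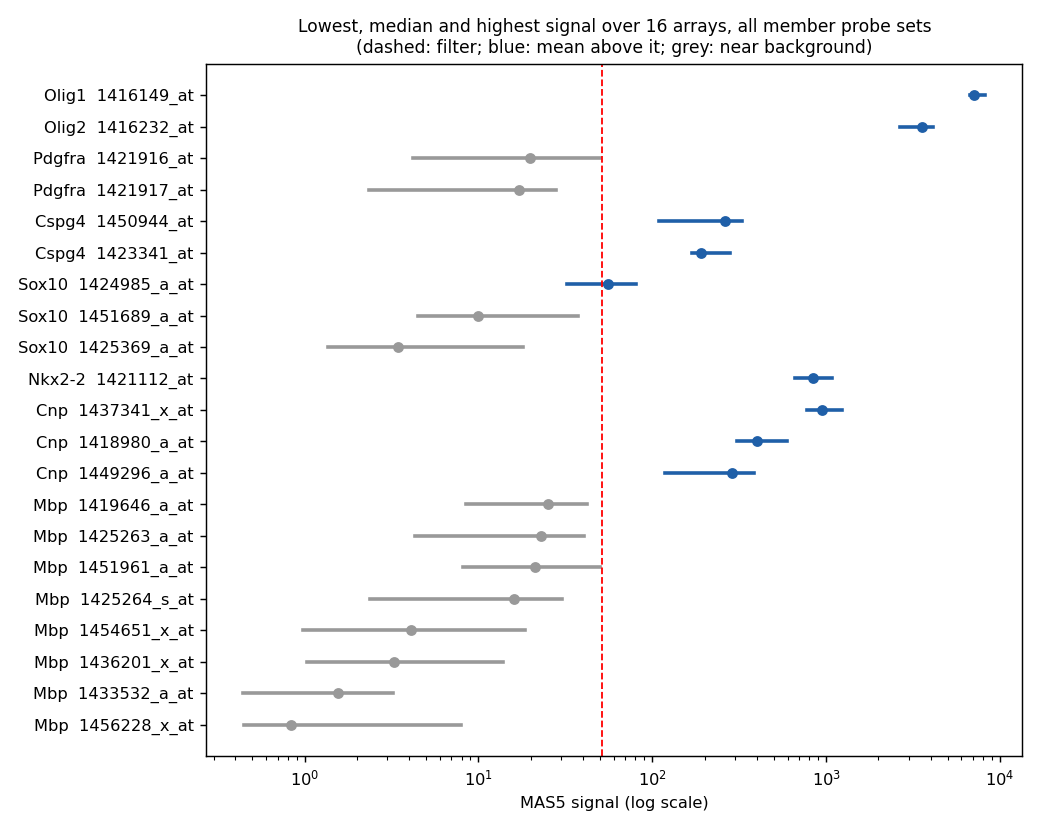
Each line runs from the lowest to the highest MAS5 signal of 1 probe set over 16 arrays, with the median as a point, on a log axis. Blue probe sets have a mean above the filter (dashed line, a signal of 51.1) and grey ones are near background: both Pdgfra and all 8 Mbp probe sets are grey, and Sox10 has 1 blue and 2 grey.

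Olig1 was bright in every culture and varied least among the tested members, with its highest signal 1.23 times its lowest. In cultures without Cre it read 7162 and 7502 under vehicle and 6819.8 and 6677 under 4OHT at 36 h, then 6889 and 7446 under vehicle and 7886 and 7030.1 under 4OHT at 60 h. In CreER cultures it read 6909.7 and 7305 under vehicle and 7094 and 7415 under 4OHT at 36 h, then 8236 and 6989.6 under vehicle and 6918 and 7964 under 4OHT at 60 h. The 36 h arrays without Cre were the only pair in which treated and vehicle arrays did not overlap, with 4OHT lower. All 8 groups lay within a range of 0.17 on the log2 scale.

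Olig2, the factor that specifies the lineage and is also present in cultured neural stem cells, had a highest signal 1.55 times its lowest. In cultures without Cre it read 4022 and 3719 under vehicle against 3578 and 3169.8 under 4OHT at 36 h, and 3114 and 3975 against 3504 and 3265 at 60 h. In CreER cultures it read 3011 and 3589 under vehicle against 2972 and 3704 under 4OHT at 36 h, and 4095 and 3474 against 2648 and 4000.2 at 60 h. The lowest reading, 2648, and one of the highest, 4000.2, were thus the 2 arrays of 1 group. Treated and vehicle arrays of CreER cultures overlapped at both times, and those without Cre overlapped at 60 h only.

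Nkx2-2, which acts with Olig2 to start oligodendrocyte differentiation, read 887 and 1075 under vehicle against 822 and 920.3 under 4OHT in CreER cultures at 36 h. At 60 h it read 940.0 and 803 against 658 and 796, so the treated arrays lay below the vehicle arrays. Without Cre it read 892 and 924 under vehicle against 829 and 729.6 under 4OHT at 36 h, and 789 and 859.9 against 942 and 823 at 60 h. Treated arrays without Cre thus also lay below the vehicle arrays at 36 h, and the 2 kinds overlapped at 60 h. The CreER cultures treated for 60 h held the lowest reading of all 16.

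**Figure D2:**
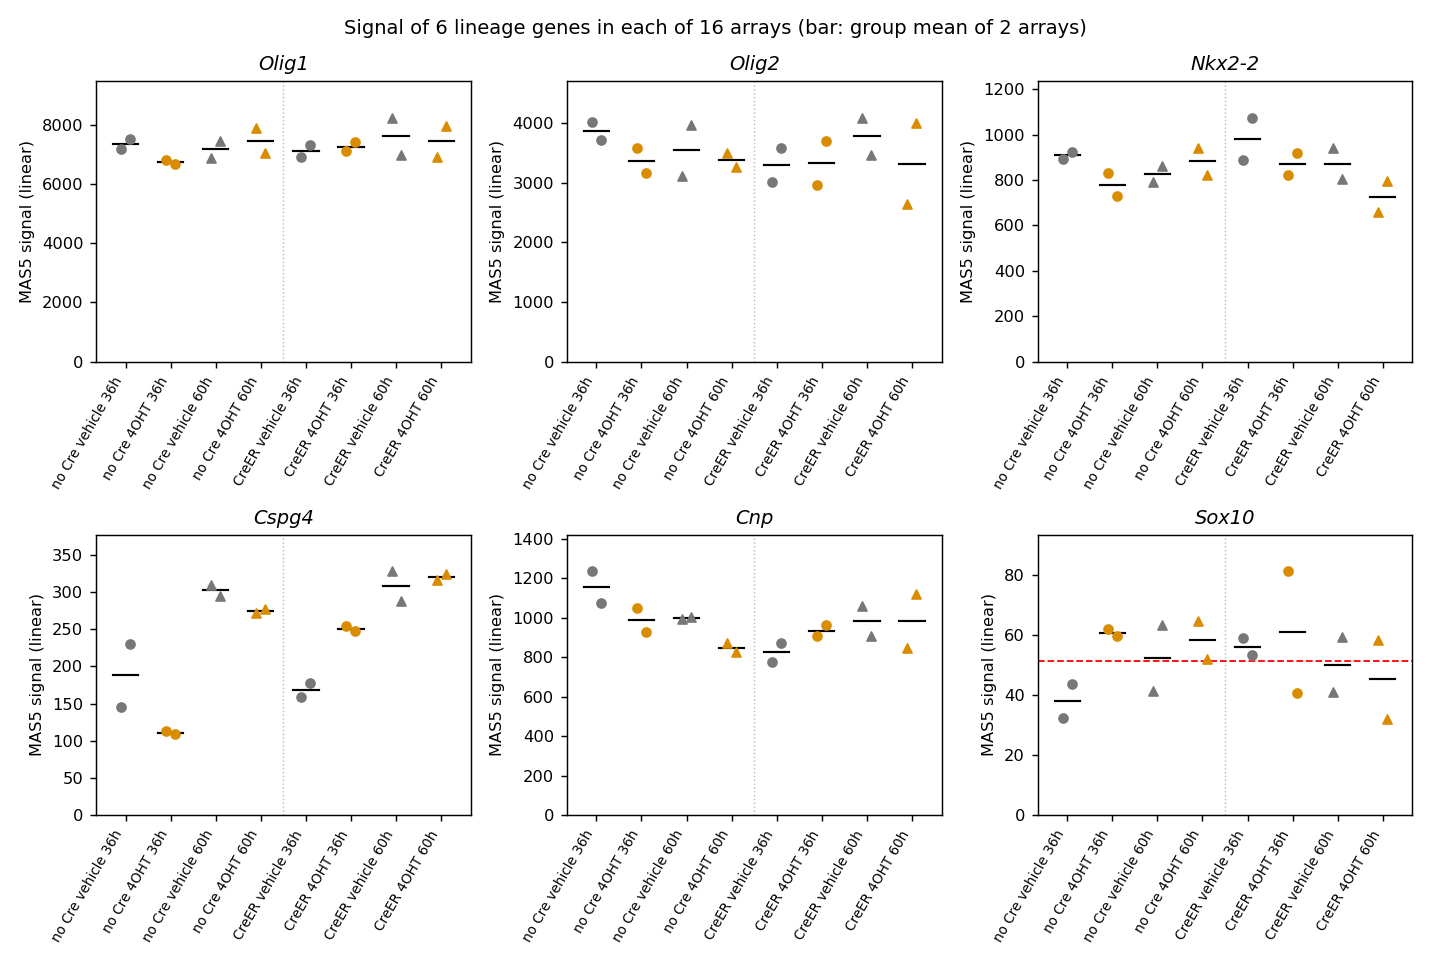
MAS5 signal (linear, from 0) of the 6 tested members in each array, by group, with grey for vehicle, orange for 4OHT, circles for 36 h and triangles for 60 h; bars are means of 2 arrays. Cspg4 is lower at 36 h than at 60 h in both kinds of culture, Olig1 stays between 6677 and 8236, and Sox10 straddles the filter (dashed line, 51.1).

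The stretch of DNA before the start site was available for 6 of the 9 genes, from RefSeq on build GRCm38.p6. In the fit of the values as deposited, with no covariate, the lineage factor Olig2 passed no test. By the probe set standing for each gene, Cspg4 was the member that moved. The stretches of DNA of Olig2 and Cspg4 are shown for comparison. Each is the 250 bases before the annotated start, on the plus strand, at chr16:91225300-91225549 for Olig2 and chr9:56864854-56865103 for Cspg4. Capitals mark CG dinucleotides.
Olig2: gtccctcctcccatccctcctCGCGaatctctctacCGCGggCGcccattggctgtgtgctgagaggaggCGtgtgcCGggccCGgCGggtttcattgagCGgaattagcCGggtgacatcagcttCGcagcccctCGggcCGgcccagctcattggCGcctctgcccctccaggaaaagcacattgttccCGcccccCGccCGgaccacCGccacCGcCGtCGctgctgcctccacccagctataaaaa
Cspg4: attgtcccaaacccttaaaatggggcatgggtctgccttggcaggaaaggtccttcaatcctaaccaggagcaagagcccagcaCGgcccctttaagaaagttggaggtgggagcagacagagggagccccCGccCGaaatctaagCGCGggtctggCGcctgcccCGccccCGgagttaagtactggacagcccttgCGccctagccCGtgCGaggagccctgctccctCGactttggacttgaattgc
The Olig2 window held 22 CG, a count that 14.8% of all 32851 promoter windows in the table reach, and the Cspg4 window 12, which 33.5% reach. The letters AAGTCA, described as the element that TLX binds, were searched on both strands: they were in 0 of the 6 member windows and in 13.1% of all windows. The letters CAGCTG, an E-box form, were likewise in 0 of 6 and in 13% of all. A missing match says only that these letters are not in these windows.

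Cspg4 encodes the NG2 proteoglycan of precursor cells and pericytes. By the probe set that stood for each gene, it was the only member that changed in the values as deposited. Its other probe set passed no comparison as deposited, and the dimmest Cnp probe set did pass some, as given below. By its brighter probe set Cspg4 read 146 and 229.7 under vehicle and 113 and 109 under 4OHT in cultures without Cre at 36 h. At 60 h the same cultures read 309 and 295 under vehicle and 271 and 277 under 4OHT. CreER cultures read 159 and 178 under vehicle and 254 and 247 under 4OHT at 36 h, then 327 and 288 under vehicle and 316 and 323 under 4OHT at 60 h. All 8 arrays at 60 h were higher than all 8 at 36 h. The order of group means from high to low was CreER 4OHT at 60 h (319.7), CreER vehicle at 60 h (308), no Cre vehicle at 60 h (302), no Cre 4OHT at 60 h (274), CreER 4OHT at 36 h (250.4), no Cre vehicle at 36 h (188), CreER vehicle at 36 h (168) and no Cre 4OHT at 36 h (111). Arrays of neighbouring groups overlapped among the first 3 groups and between the sixth and the seventh, and did not overlap at the other steps.

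The other Cspg4 probe set did not follow that pattern. It read 203 and 192 under vehicle and 172 and 184 under 4OHT without Cre at 36 h, and 203 and 183 against 207 and 175 at 60 h. In CreER cultures it read 169 and 185 under vehicle and 191 and 201 under 4OHT at 36 h, and 191 and 226 against 223 and 279 at 60 h. Its highest signal was 1.65 times its lowest, against 3.01 times for the brighter probe set. By the probe set that moved, both 4OHT arrays without Cre at 36 h lay below all other arrays. The vehicle arrays without Cre at 36 h read 146 and 229.7, on either side of the CreER vehicle arrays of that time. Their actin ratios were 0.593 and 0.666 in that order. Any part of the ratio in these readings was not tested.

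Cnp, the myelin phosphodiesterase, had 3 probe sets above the filter, which differed among themselves. The brightest read 1236 and 1075 under vehicle against 1048 and 928 under 4OHT without Cre at 36 h, and 993 and 1006 against 872 and 825 at 60 h. In CreER cultures it read 779 and 872 under vehicle against 908 and 962 under 4OHT at 36 h, and 1062 and 909 against 848 and 1121 at 60 h. Treated arrays without Cre thus lay below vehicle arrays at both times, and treated CreER arrays above them at 36 h only. The dimmest Cnp probe set ran from 119 to 387, and its 4 arrays without Cre at 36 h read 179.5, 286, 119 and 165, against 274 to 387 in the 4 arrays without Cre at 60 h. The brightest had the opposite order in these cultures, with 928 to 1236 at 36 h and 825 to 1006 at 60 h. The middle probe set read 395 to 462 and 349.8 to 432 at these times.

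**Figure D3:**
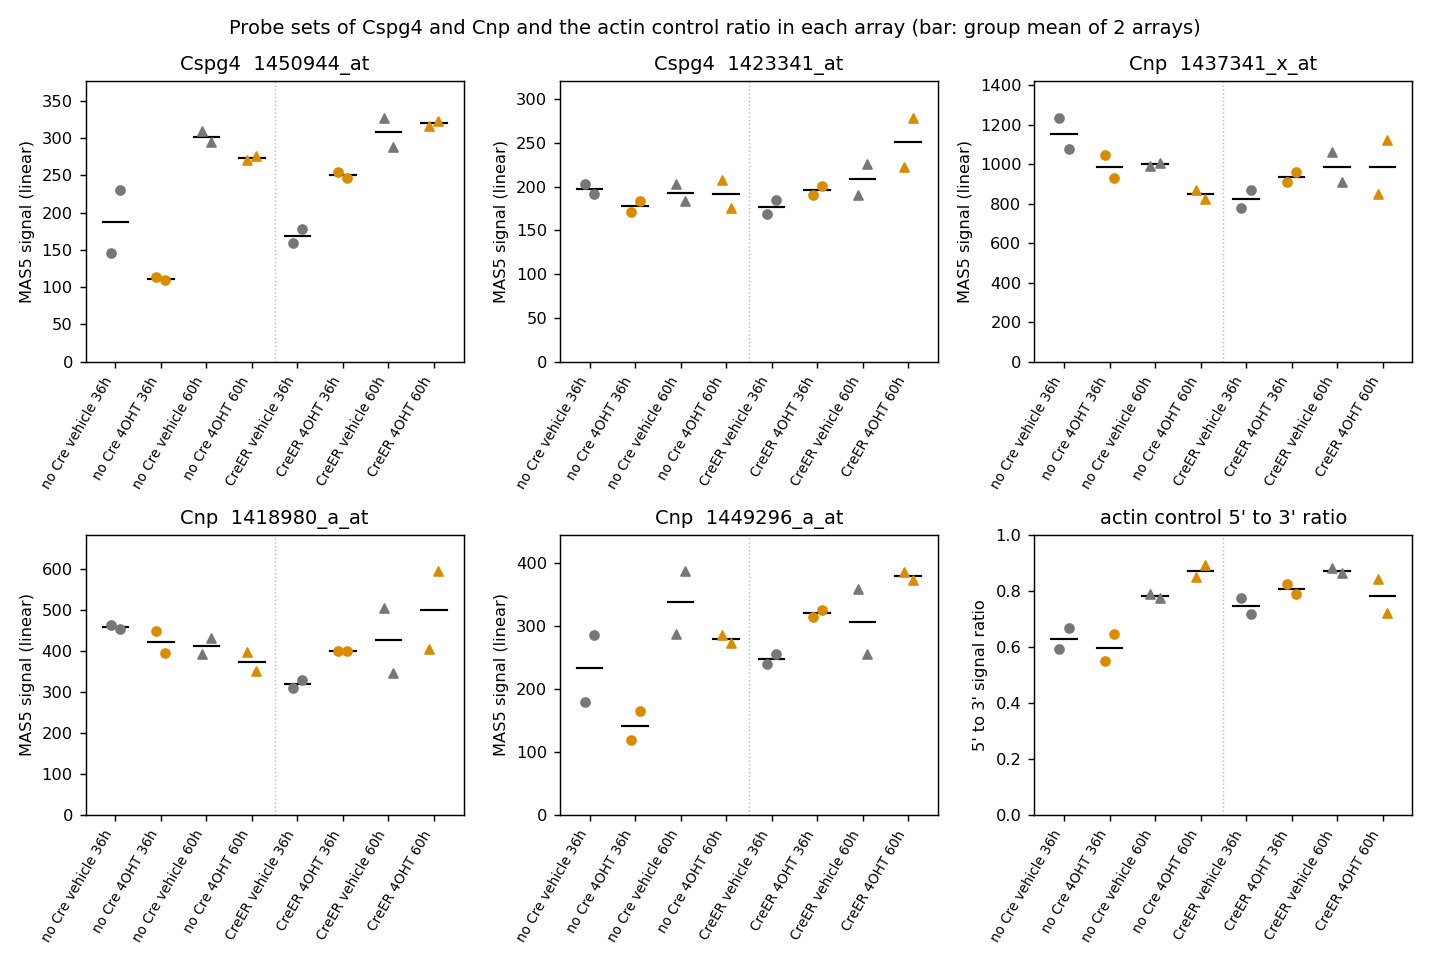
MAS5 signal (linear, from 0) of the 2 Cspg4 and 3 Cnp probe sets above the filter in each array, and the 5' to 3' ratio of the actin control; grey is vehicle, orange 4OHT, circles 36 h, triangles 60 h, bars means of 2 arrays. The brighter Cspg4 and the dimmest Cnp probe set are lowest in the 4OHT arrays without Cre at 36 h (109 and 113, 119 and 165). The actin ratio is 0.548 and 0.647 in those arrays and 0.593 and 0.666 in the vehicle arrays without Cre at 36 h. Any part of the ratio in these signals was not tested.

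CreER cultures are those in which 4OHT can set the recombinase to work. With limma, 0 of the 6 tested members passed an adjusted p of 0.05 over both times, against 12.4% of all 7619 genes tested, and 1 (Cspg4) had an unadjusted p under 0.05. Olig1 changed by -0.00096 ± 0.092 on the log2 scale (SE), with a 95% interval of 0.882-fold to 1.13-fold. Olig2 changed by -0.10 ± 0.11, with an interval of 0.805-fold to 1.08-fold. Nkx2-2 gave -0.21 ± 0.13 (adjusted p = 0.33; 0.722-fold to 1.03-fold), Cnp 0.08 ± 0.13 (0.887-fold to 1.27-fold), and Sox10 -0.04 ± 0.18 (0.758-fold to 1.24-fold). Cspg4 gave 0.29 ± 0.14 (adjusted p = 0.15; 1.02-fold to 1.48-fold). At 36 h 0 of 6 passed (2.61% of all genes; 1 at an unadjusted p under 0.05), with Cspg4 at 0.53 ± 0.20 and an adjusted p of 0.13. At 60 h 0 of 6 passed (7% of all genes; 0 at an unadjusted p under 0.05), and the 6 changes lay between -0.26 for Nkx2-2 and 0.05 for Cspg4. With the actin ratio as a covariate Olig2 passed at 60 h, at -0.53 (adjusted p = 0.012) in place of -0.21 (adjusted p = 0.47), a setting that raised the count over all genes from 533 to 1203.

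Several of these calls changed with the way the arrays were brought to a common brightness. After quantile normalization 3 of 6 members passed over both times, against 38.8% of all genes: Cspg4 rose by 0.37 (adjusted p = 0.011), Cnp rose by 0.17 (adjusted p = 0.035) and Nkx2-2 fell by 0.12 (adjusted p = 0.038). After scaling to a common median 2 of 6 passed, against 32.9% of all genes, namely Cspg4 (0.34) and Nkx2-2 (-0.16). Cspg4 at 36 h passed under both scalings, with 0.55 and 0.51 (adjusted p = 0.015 each), where 21.4% and 19.1% of all genes did. Calls among the members thus grew together with calls among all genes. The error estimate changed with the scaling: for Nkx2-2 the SE was 0.13 as deposited and 0.042 after quantile normalization. Which of these changes brought the calls was not tested. The other probe sets of Cnp gave 0.27 and 0.33 as deposited, with adjusted p of 0.19 and 0.092, and the other Cspg4 probe set 0.19 with an adjusted p of 0.42. All 3 of these changes were positive, and both Cnp probe sets passed after quantile normalization.

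In cultures without Cre, 4OHT has no recombinase to act on. With limma 0 of 6 members passed over both times, against 0.0656% of all genes, and 1 had an unadjusted p under 0.05, Cspg4 at -0.39 ± 0.14 (adjusted p = 0.93). Olig1 (-0.03), Olig2 (-0.13), Nkx2-2 (-0.06) and Cnp (-0.23) were on the same side of 0, and Sox10 gave 0.32 ± 0.18.

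The test of whether the response to 4OHT differed between the genotypes called 1 of 6 members, against 2.34% of all genes. For Cspg4 the response in CreER cultures exceeded that without Cre by 0.69 ± 0.20 on the log2 scale (adjusted p = 0.027). On that scale the response was -0.65 without Cre and 0.53 with CreER at 36 h, and -0.13 and 0.05 at 60 h. The difference was 1.18 at 36 h alone (adjusted p = 0.0056) and 0.19 at 60 h alone (adjusted p = 0.88). With no filter on low genes its adjusted p was 0.14. By the other probe set it was 0.27 over both times with an adjusted p of 0.72. Leaving out 1 array in turn lost the call for 7 of the 16 arrays, with adjusted p up to 0.30 without replicate 2 of the vehicle arrays without Cre at 36 h. The actin control ratio was 0.593 and 0.666 under vehicle and 0.548 and 0.647 under 4OHT in the 36 h arrays without Cre, and with that ratio as a covariate the difference was 0.73 (adjusted p = 0.0078), where 290 genes of the whole table passed against 178 without it. Cnp gave 0.31 ± 0.19 by the brightest probe set (adjusted p = 0.60), and 0.77 (adjusted p = 0.0060) by the dimmest. After quantile normalization the brightest passed too (0.34, adjusted p = 0.012), so that 2 of 6 members were called, against 19.2% of all genes, and after median scaling 1, Cspg4, against 15.4%. Markers of pericytes and mural cells, which also express Cspg4, were near background for 5 of 6 genes, and their summed signal was 104 to 181 in the 36 h arrays without Cre and 142 to 208 in the 36 h CreER arrays. Their part in the result was not tested.

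Under vehicle, CreER and no-Cre cultures were compared to see whether they started from the same levels. With limma 0 of 6 members passed, against 34.5% of all genes, and 0 had an unadjusted p under 0.05. Olig1 differed by 0.02 ± 0.09 on the log2 scale and Olig2 by -0.07 ± 0.11. Nkx2-2 gave 0.09 ± 0.13 (0.889-fold to 1.27-fold) as deposited, and was higher in CreER cultures by 0.25 after quantile normalization (adjusted p = 1.2e-04; 1 of 6 members, against 55.3% of all genes). After median scaling Olig1 (0.19, adjusted p = 0.0016) and Nkx2-2 (0.26, adjusted p = 7.9e-04) passed, against 52% of all genes. Some markers of other cells also moved with genotype, in both directions. In vehicle arrays the neuron list summed to 1488 to 1777 with CreER and 1928 to 2261 without Cre. Of its 8 genes 2 were above the filter, Map2 and Syt1. Thy1, a surface glycoprotein gene of neurons and fibroblasts, was higher in CreER cultures by 3.71 (adjusted p = 9.3e-165). It was the 1 of 6 fibroblast markers above the filter. Of the tested astrocyte markers, Gja1 (-2.04) and S100b (-1.48) were lower in CreER cultures. Aldh1l1 (1.09) and Aldoc (0.34) were higher, and Glul did not pass. The part of these markers in the members' values was not tested. The genotype is 1 kind of culture against another here, so that any other difference between the lines cannot be told apart from CreER.

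Under 4OHT 1 of 6 members passed, against 38.5% of all genes. Cspg4 was higher in CreER cultures by 0.64 ± 0.14 (adjusted p = 2.9e-05). This difference was 1.07 at 36 h alone (adjusted p = 9.0e-07) and 0.21 at 60 h alone (adjusted p = 0.46), and by the other probe set 0.25 (adjusted p = 0.16). After quantile normalization the other probe set passed as well (0.42, adjusted p = 0.0033). Olig1 (0.05), Olig2 (-0.04), Nkx2-2 (-0.06), Cnp by its brightest probe set (0.06) and Sox10 (-0.18) did not pass. By the dimmest Cnp probe set the difference was 0.76 (adjusted p = 2.8e-07), and by the middle one 0.15 (adjusted p = 0.39). Both passed after quantile normalization, at 0.93 and 0.36. After quantile normalization Cspg4, Cnp (0.24, adjusted p = 0.0031) and Nkx2-2 (0.13, adjusted p = 0.015) passed, 3 of 6 against 55.9% of all genes, so that Nkx2-2 turned its sign. After median scaling Olig1, Cspg4 and Cnp passed, against 52.6% of all genes.

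**Figure D4:**
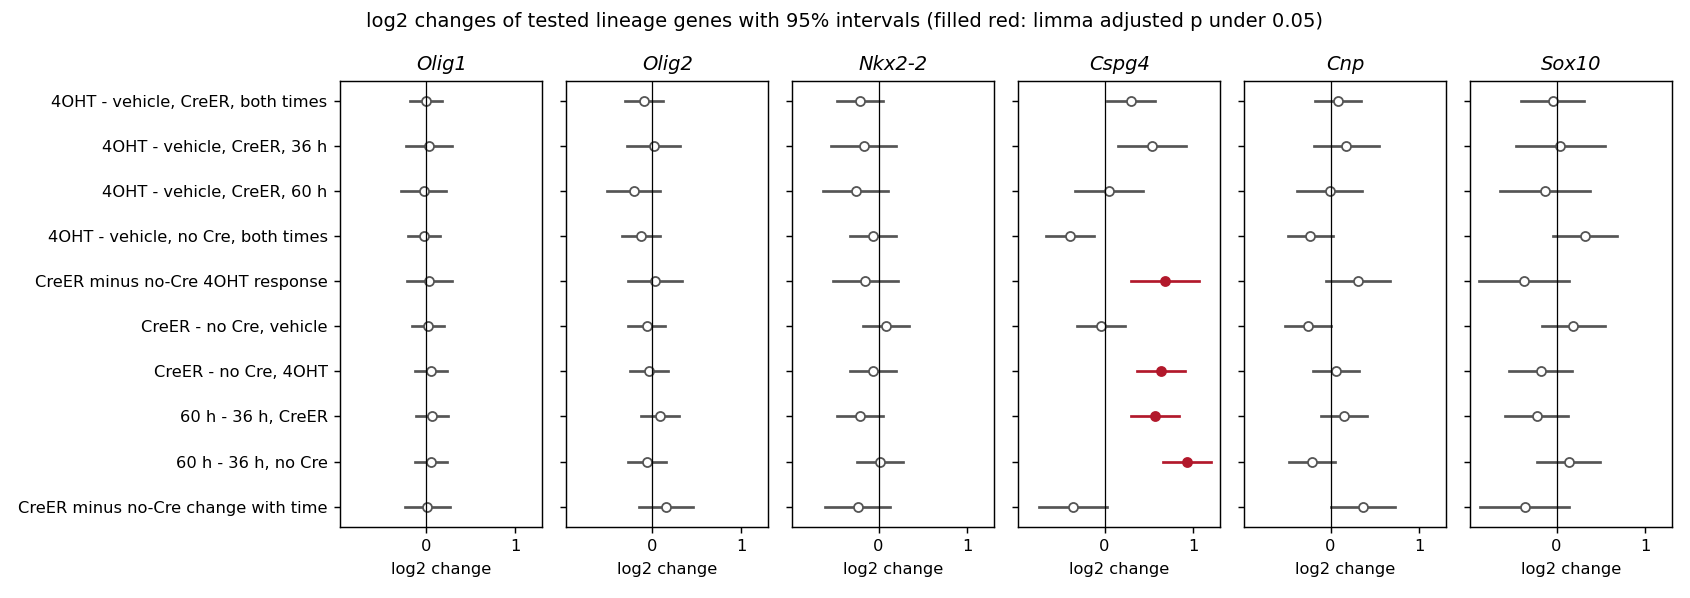
log2 change with its 95% interval for the 6 tested members in the 10 comparisons, from the fit of all 16 arrays as deposited; red filled points passed a limma adjusted p of 0.05. Only Cspg4 has filled points in this fit, in 4 comparisons, and Olig1 and Olig2 have none.

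Time in culture gave the largest change of a member among the 10 comparisons. Cspg4 rose from 36 h to 60 h by 0.93 ± 0.14 on the log2 scale in cultures without Cre (adjusted p = 2.9e-09), with a mean signal of 149 ± 56.1 at 36 h and 288 ± 17.3 at 60 h (SD, 4 arrays per time). It was 1 of 6 members called there, against 4.1% of all genes. In CreER cultures it rose by 0.57 ± 0.14 (adjusted p = 0.0016), with 209 ± 48.0 at 36 h and 314 ± 17.7 at 60 h (SD, 4 arrays per time), 1 of 6 members against 5.28% of all genes. The change with time did not pass as different between genotypes (-0.36 ± 0.20, adjusted p = 0.54). The other probe set gave 0.03 without Cre (adjusted p = 0.91) and 0.27 with CreER (adjusted p = 0.35). The actin control ratio also rose with time in cultures without Cre, from 0.548 to 0.666 at 36 h to 0.773 to 0.891 at 60 h, and with it as a covariate the change was 0.73 with an adjusted p of 0.48. With that covariate 14 genes of the whole table passed for time without Cre, against 312 without it. In CreER cultures the ratio was 0.716 to 0.825 at 36 h and 0.720 to 0.882 at 60 h, and with the covariate the change was 0.53 (adjusted p = 0.0097).

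By the probe set that stood for its gene, none of the other tested members passed for time as deposited. Changes ran from -0.22 for Sox10 to 0.15 for Cnp in CreER cultures and from -0.21 for Cnp to 0.14 for Sox10 without Cre. For the difference of these changes between genotypes, 0 of 6 passed with limma (2.14% of all genes; 0 at an unadjusted p under 0.05). Nkx2-2 fell with time by 0.21 ± 0.13 in CreER cultures and gave 0.02 ± 0.13 without Cre. After quantile normalization it fell by 0.14 with CreER (adjusted p = 0.028) and rose by 0.14 without Cre (adjusted p = 0.025). The difference of -0.28 then passed (adjusted p = 0.0062), as did that of Cnp (0.31, adjusted p = 0.023), 2 of 6 members against 17.1% of all genes. Calls for time also grew: 4 of 6 members with CreER (22.8% of all genes) and 3 of 6 without Cre (27.1%) after quantile normalization, Olig1 among them at 0.08 and 0.12. After median scaling 2 of 6 passed in each (21.5% and 46%), and 1 of 6, Cnp, for the difference (15.2%). By the dimmest Cnp probe set the change without Cre was 0.72 (adjusted p = 1.1e-05), opposite in sign to the -0.21 of the brightest.

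Other genes of the lineage were read from 4 lists, to be set against the 12.4% of all genes called after 4OHT in CreER cultures. Of 22 genes of precursors and commitment, 10 were tested, and 1 of the 10 fell after 4OHT in CreER cultures while 0 rose, with a median of -0.15 against -0.068 over all genes. The gene that fell was Sox11, an HMG-box factor of immature neural cells (-0.41, adjusted p = 0.031). Of 22 myelin genes only Car2, Qdpr and Sirt2 were tested, and 0 of these 3 passed. Among 15 genes of PDGF, Hedgehog, FGF and IGF signalling, 9 were tested, and 2 rose. Pdgfa, which encodes the PDGF-A chain that binds the Pdgfra receptor, rose by 0.51 ± 0.13 (adjusted p = 0.0030), and Pdgfc, another PDGF ligand, by 0.41 ± 0.13 (adjusted p = 0.024). Their receptor gene Pdgfra was near background in the same arrays. With limma the response to 4OHT did not pass as different between genotypes for Pdgfa (0.39, adjusted p = 0.41) or Pdgfc (0.44, adjusted p = 0.30). Nor did it for Sox11 (-0.18, adjusted p = 0.87). Of 8 tested genes listed as inhibitors of oligodendrocyte differentiation, 0 passed as deposited, with a median of 0.04. Both ligands also rose under each scaling. After quantile normalization 3 inhibitors rose (Id2, Notch1 and Lingo1) and 1 fell (Sox5), named after their values were seen. That is 4 of 8, where 38.8% of all genes passed.

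Between genotypes under vehicle 34.5% of all genes passed, and genes of these lists were among them. Of the 10 tested precursor genes 6 were lower and 1 higher in CreER cultures, with a median of -0.49 against -0.13 over all genes. Quantile normalization moved these medians to -0.36 and 0.021. The lower genes included the proteoglycan gene Vcan, with 1546 ± 115 without Cre and 816 ± 231 with CreER (SD, 4 arrays each), and Sox11 gave -0.71 on the log2 scale (adjusted p = 4.0e-06). Ednrb, an endothelin receptor gene, gave -1.96 on the log2 scale (adjusted p = 2.0e-42), and Tcf7l2, a factor of differentiating oligodendrocytes, gave -0.89 (adjusted p = 7.6e-10). C1ql1 was the 1 higher gene (0.72, adjusted p = 1.3e-04). Of the 3 tested myelin genes Car2 (-1.15) and Qdpr (-0.45) were lower. Pdgfa (-0.90) and Pdgfc (-1.53) were lower in CreER cultures under vehicle, the opposite of their direction after 4OHT, and Ptch1, the Hedgehog receptor gene, gave -0.61 (adjusted p = 4.1e-05). Among the genes listed as inhibitors Sox5 (1.02), Jag1 (0.58) and Hes1 (0.36) were higher and Sox6 (-0.83) and Tcf4 (-0.87) lower. The role that the list gives them was not tested. The genes named in these sentences kept their direction and their call after quantile normalization and median scaling. C1ql1 and Hes1 were named after their values were seen. The other genes here were named for the smallest p of their list, so their choice also rests on these values.

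Cell type markers were read to describe the cultures, which are labelled as neural stem cells. Among all genes with a probe set, 7619 of 12393 passed the filter. Counts of passing markers therefore do not by themselves place the cultures with a cell type. Of 12 neural stem and progenitor markers, 11 had a probe set and 9 passed the filter, among them Nes (1371 to 3428) and Sox2 (1239 to 2307). Of 8 astrocyte markers 5 passed and of 8 neuron markers 2 passed, and Gfap was near background (14.6 to 44.6). Endothelial markers passed in 0 of 6, and microglial, mural and fibroblast markers in 1 of 8, 1 of 6 and 1 of 6, where the 1 was Csf1r, Acta2 and Thy1. For Schwann and neural crest markers, whose cells also use Sox10, 5 of 6 had a probe set and 2 passed, Pmp22 and Gap43. In RNA from whole cultures, fewer cells of a type and less RNA per cell cannot be told apart.

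Genes whose 8 group means ran most like those of a member were listed for description, with the arrays and their brightness shared by all. The closest to Cspg4 were Pdcd6ip, Ap5s1 and Orai1 (likeness, as Pearson's coefficient over 8 group means, 0.94 to 0.96). For Nkx2-2 they were Dtymk, Snrpb and Ilf2 (0.96 to 0.97), for Olig2 Synrg, Creg1 and Rasgrp2 (0.95 to 0.97), for Olig1 Nthl1, Dnal4 and Hspbp1 (0.94 to 0.96), for Cnp Xpa, Sox4 and Bloc1s5 (0.91 to 0.92), and for Sox10 Tnfrsf4, Cfc1 and Auh (0.68 to 0.85). No member stood among the genes listed for another member. Only the highest coefficients were listed, so this absence does not show that members ran unlike one another. Between members the coefficient was 0.82 for Olig1 and Cspg4, 0.70 for Olig2 and Cnp, and -0.72 for Sox10 and Cnp. The other pairs of members gave -0.60 to 0.36.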

How the data were processed

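RNA of 16 samples of cultured cells was measured on 1 array each. Per the labels, TRIzol RNA was labelled with biotin by an ENZO kit. The deposited table holds linear intensity (signal) values, and the submitters' processing notes name MAS5; its version and scaling are not given in the sources used here. Values were used unscaled. Symbols came from the platform annotation, and the targeted gene is not analysed here. All 16 arrays entered 1 limma fit (limma 3.58.1, R 4.3.3) of 8 group means on log2(signal + 16), with a trend of variance on mean. Tests were two-sided, and p-values were adjusted by Benjamini-Hochberg over 7619 genes in each comparison, with 0.05 as the threshold. Prior degrees of freedom were infinite, so each gene's variance came from the shared trend alone; after quantile normalization they were 6.84. The script was tested on simulated data. Members and gene lists were chosen with earlier results of these data known. Every member is named, from each other list the 2 to 4 genes of smallest p, and for likeness the 3 highest coefficients. Alternatives were 2 scalings, 2 pseudocounts, 2 filters, 2 variance models, another choice of probe set, the compared groups alone, the actin ratio as a covariate, a replicate block, and each array left out; single times and other probe sets were added after the data were seen.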

Additional observations from a re-analysis of the deposited data

Results flagged for a closer look

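A difference between the genotypes in the response to 4OHT passed limma's test for Cspg4, the NG2 gene (0.69 on the log2 scale, adjusted p = 0.027), where the response was 0.29 with CreER and -0.39 without Cre. The same test passed for 3 marker genes: S100b, a calcium-binding protein of astrocytes (1.37, adjusted p = 5.4e-10), the synaptic vesicle gene Syt1 (0.93, adjusted p = 0.0039), and the surface glycoprotein gene Thy1 (0.77, adjusted p = 0.0047). For each of these the response was positive with CreER and negative without. Over all genes 2.34% passed this test. The other tested astrocyte markers did not pass, at -0.30 for Glul, -0.12 for Aldoc, 0.12 for Aldh1l1 and 0.43 for Gja1. Nor did the other tested neuron marker, Map2 (-0.21). Of the lineage lists, Fgfr1, an FGF receptor gene, had a change with time that differed between genotypes (-0.68, adjusted p = 0.018), with -0.32 in CreER cultures and 0.36 without Cre.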

How the results depend on the processing

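Counts of members called were the same in 283 of 318 repeats and moved in 35. After quantile normalization the counts were 3 for the response to 4OHT with CreER, 1 for it at 36 h, 2 for the difference of responses, 1 and 3 for CreER against no Cre under vehicle and 4OHT, 4 and 3 for time with CreER and without Cre, and 2 for the difference of these. After median scaling they were 2 for 4OHT in CreER cultures, 1 at 36 h, 2 and 3 for genotype under vehicle and 4OHT, 2 and 2 for time, and 1 for its difference. With the actin ratio as a covariate 1 member, Olig2, passed at 60 h (-0.53), and 0 for time without Cre. With no filter the difference of responses called 0. At 60 h alone 0 passed for that difference and for genotype under 4OHT, and at 36 h alone 1, Cnp, under vehicle. With the other Cspg4 probe set 0 passed for the difference of responses, genotype under 4OHT and both changes with time. With the dimmest Cnp probe set 2 passed for the difference of responses, genotype under 4OHT and time without Cre. The cause of these changes was not tested. Leaving out 1 array in turn gave 0 to 1 members for the difference of responses, where Cspg4 lost its call without replicate 1 of CreER vehicle at 36 h, either CreER 4OHT array at 36 h, replicate 2 of vehicle without Cre at 36 h, replicate 1 of vehicle without Cre at 60 h, or either 4OHT array without Cre at 36 h, and its value ran from 0.54 to 0.84; the other 9 comparisons kept 0 or 1 as in the fit of all arrays.

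Of 1748 repeats of single members' values, 2 passed with a sign opposite to a value that had not passed: Nkx2-2 between genotypes under 4OHT after quantile normalization (0.13) and Cnp with time without Cre by its dimmest probe set (0.72). Another 120 changed sign without a call on either side. With a replicate block the count of members called was the same in all 10 comparisons, and 783 against 942 genes of the whole table were called for 4OHT in CreER cultures. The numbers did not pair the arrays: differences between replicates correlated across groups at -0.12 to 0.31. Counts over all genes moved by over 1.5 times in 9 of 10 comparisons under quantile normalization (62 to 4260 genes) and under median scaling (17 to 4008), and in 8 of 10 with no filter (0 to 2654), against 5 to 2936 as deposited. Signals near background limit Pdgfra, Mbp and Sox10.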
